A study of Homo sapiens with 18 samples.

Results

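The IFIT genes (interferon-induced proteins with tetratricopeptide repeats) and the IFITM genes (interferon-induced transmembrane proteins) encode antiviral proteins. Their levels were followed in cells that had received a microRNA mimic or a control small RNA. The genes were chosen by symbol and numbered 7, with 4 of the IFIT family (IFIT1, IFIT2, IFIT3 and IFIT5) and 3 of the IFITM family (IFITM1, IFITM2 and IFITM3). Each of the 7 was found both in the MCF10A table, which lists 15358 genes, and in the hTERT RPE-1 table, which lists 15257. Each also passed the filter on low values (10 or more in 3 or more of a line's 9 libraries), which left 14726 and 14527 genes for testing.

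PolyA+ RNAseq was conducted in 18 libraries. MCF10A is a non-tumorigenic human breast epithelial line, and hTERT RPE-1 is a human retinal pigment epithelial line immortalized with telomerase. Cells of each line were transfected for 72 h at 30 nM with 1 of 3 small RNAs, namely siNT (a non-targeting siRNA, the negative control), a mimic of hsa-miR-28-5p (miR-28 below) or a mimic of hsa-miR-708-5p (miR-708 below). Each group held 3 biological replicates, numbered 7 to 9 in MCF10A and 1 to 3 in hTERT RPE-1 (RPE-1 below). Within a line, both mimics were compared with the same 3 siNT libraries. No group was left without a transfected small RNA, so each mimic was compared with cells that had received siNT. Both mimics belong to the MIR-28 family, and a mimic raises its microRNA far above the level a cell makes itself.

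The reads on genes per library were estimated at 19.4–31.7 M (MCF10A) and 23.8–40.3 M (RPE-1), so that 3 reads, the floor used here, correspond to values of 2.49–4.02 and 2.36–4.41. The floor covers counting error only. RPS28, a ribosomal protein gene, separated the mimics from siNT in every library, at 3589–4062 with siNT and 499.8–785 with a mimic in MCF10A, and at 2892–3465 and 123–184 in RPE-1. Neither table holds a value of 0 in any library. A gene that is not listed is therefore not shown to be silent or unchanged. All 7 breast epithelial markers were present in MCF10A. In RPE-1, RPE65 and TYR were not listed and RLBP1 lay near the floor with siNT (1.47–4.05), while MITF was at 1757–2031, BEST1 at 153–182, PMEL at 9.12–544 and KRT8, KRT18 and VIM at 11570 or more. The miR-28 replicate 1 library of RPE-1 stands apart from the other 2 of its group, as described with the results, and ribosomal RNA genes took 15.1% of its summed values against 4.23–7.20% in the other 8 libraries of the line.

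IFIT proteins bind RNA with 5′ ends that differ from those of the cell's own mRNA and block its translation. IFITM proteins sit in the plasma membrane or in endosomal membranes and hinder the fusion of viral and cellular membranes. Both families are induced by interferons. Interferon receptors activate the kinases JAK1 and TYK2, after which a complex that holds STAT2 and IRF9 binds to the interferon-stimulated response element in the promoters of many antiviral genes. The cytosolic sensors RIG-I (encoded by RIGI) and MDA5 (encoded by IFIH1) recognize double-stranded RNA and start the production of interferon, and IRF3, which acts downstream of them, can induce IFIT genes directly.

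The 4 IFIT genes lie together on chromosome 10 of hg38, within 119 kb (chr10:89302046-89420997). Their order is IFIT2 (chr10:89302046-89309271), IFIT3 (chr10:89327997-89340968), IFIT1 (chr10:89392623-89406487) and IFIT5 (chr10:89414568-89420997). The 3 IFITM genes occupy 13.0 kb near the end of the short arm of chromosome 11 (chr11:307816-320860), in the order IFITM2 (chr11:307816-309395), IFITM1 (chr11:314040-315272) and IFITM3 (chr11:319676-320860). In coding sequence IFITM2 and IFITM3 are 94.0% identical, IFITM1 is 85.5% and 87.6% identical to them, and pairs of IFIT genes are 61.7–73.0% identical. Of the 100-base windows of each transcript, none of the 4 IFIT genes shared an exact window with another gene, while IFITM1 and IFITM3 shared 42 with each other. A gene without a symbol, annotated across this locus in GENCODE and not in these tables, shared 264 of the 569 windows of IFITM1, 19 of the 907 of IFITM2 and 21 of the 512 of IFITM3. The division of reads among the IFITM genes is therefore less certain than that among the IFIT genes.

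The mature strand of hsa-miR-708-5p is shown because its seed, bases 2 to 8 in capitals, is the part with which a microRNA pairs to its targets. The sequence is from RefSeq and lies at chr11:79402077-79402099 on the minus strand (GRCh38.p14).
hsa-miR-708-5p: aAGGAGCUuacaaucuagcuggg

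A match to these 7 bases, AGCTCCT, occurred in the 3′ UTR of 2 of the 7 genes, IFIT1 and IFIT5, at positions 322 and 1958 of the 3′ UTR. The shorter match GCTCCT, to bases 2 to 7, occurred in no other member. AGCTCCT was present in 14.2% of 19550 annotated 3′ UTRs (1 transcript per gene). The sites are shown with 26 bases each and the match in capitals, since both genes rose with miR-708.
IFIT1: aaaatccttAGCTCCTccaccaactg
IFIT5: ctttaaacaAGCTCCTcctaggtgag

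The promoters are shown because all 7 genes were higher with miR-708 in both lines. RefSeq promoters of 300 bases that span the start (GRCh38.p14) were matched for 5 of the 7 genes, with a pair of promoters for IFIT3. They were searched on both strands for the core of the interferon-stimulated response element, which is GAAA, 2 bases of any kind and GAAA again (TTTC, 2 bases and TTTC on the other strand). Each of the 6 promoters of these 5 genes held 2 or 3 matches, in capitals below, whose first bases lay 4 to 156 bases before the start. Of all 35116 promoters in the table, 3.57% held a match.
IFIT1, chr10:89392487-89392549, plus strand: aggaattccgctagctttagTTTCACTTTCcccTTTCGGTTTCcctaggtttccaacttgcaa
IFIT3, upstream promoter, chr10:89327821-89327904, plus strand: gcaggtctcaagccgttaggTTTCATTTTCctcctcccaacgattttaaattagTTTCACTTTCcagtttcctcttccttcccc
IFIT3, downstream promoter, chr10:89332415-89332507, plus strand: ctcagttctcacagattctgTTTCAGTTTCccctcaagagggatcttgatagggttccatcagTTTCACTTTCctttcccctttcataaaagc
IFIT5, chr10:89414503-89414593, plus strand: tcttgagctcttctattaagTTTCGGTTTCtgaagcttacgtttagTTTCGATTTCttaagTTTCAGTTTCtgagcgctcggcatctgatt
IFITM1, chr11:313980-314063, plus strand: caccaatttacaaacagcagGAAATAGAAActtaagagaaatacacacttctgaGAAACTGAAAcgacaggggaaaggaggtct
IFITM3, chr11:320866-320932, minus strand: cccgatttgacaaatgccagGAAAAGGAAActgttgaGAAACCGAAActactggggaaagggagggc

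The first question was whether the mimics changed these genes in MCF10A. With miR-708 all 7 were higher than with siNT, IFIT1 by 220-fold, IFIT3 by 90.5-fold, IFIT2 by 75.4-fold and IFITM1 by 21.3-fold, whereas IFIT5, IFITM3 and IFITM2 rose by 3.22-fold, 2.39-fold and 1.41-fold. With miR-28 only IFIT1 and IFIT3 passed the test, 3.23-fold and 2.92-fold higher. For comparison, 15.5% of all genes tested were called higher with miR-708 and 10.7% with miR-28. Folds are 2 to the power of the log2 fold change of the value plus 1, and a gene was called at an adjusted p under 0.05 (limma with Benjamini-Hochberg adjustment over all genes tested). In bulk RNA, more RNA per cell and more cells with the RNA cannot be told apart.

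IFIT1 binds capped RNA that lacks the methyl group found on the cap-proximal nucleotide of cellular mRNA. Its values in MCF10A were 83.8, 39.6 and 47.5 with siNT in replicates 7, 8 and 9, 217, 114 and 224 with miR-28, and 8533, 16272 and 12825 with miR-708. The 3 groups did not overlap, and the lowest miR-708 library was above the highest miR-28 library by more than an order of magnitude. The log2 fold change was 1.69 with miR-28 (standard error 0.33, adjusted p = 0.00491, limma) and 7.78 with miR-708 (standard error 0.33, adjusted p = 1.44e-07, limma).

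IFIT2 and IFIT3 form complexes with IFIT1 and with each other, and IFIT3 stabilizes IFIT1. IFIT2 was at 124, 78.2 and 127 with siNT, 153, 195 and 296 with miR-28, and 4151, 11944 and 10971 with miR-708. IFIT3 was at 107, 118 and 154 with siNT, 249, 372 and 526 with miR-28, and 6539.7, 17057 and 13170.0 with miR-708. For both genes the 3 groups were again separate, and replicate 7 was the lowest of the miR-708 libraries. With miR-708 the log2 fold changes were 6.24 for IFIT2 and 6.50 for IFIT3 (standard errors 0.37 and 0.33, adjusted p = 1.65e-06 and 4.60e-07, limma). With miR-28 IFIT3 passed the test (1.54, standard error 0.33, adjusted p = 0.00773, limma) and IFIT2 did not (0.94, 95% interval 0.13 to 1.75, adjusted p = 0.0896, limma). IFIT2 did pass with the replicate number as a block (adjusted p = 0.0219, limma) and when miR-708 replicate 7 was left out (adjusted p = 0.0187, limma).

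IFIT5, which acts as a monomer and binds RNA with a 5′ triphosphate, had the highest siNT level per length of the IFIT family. Its values were 898, 714 and 778 with siNT, 1000.2, 869.9 and 963 with miR-28, and 2209, 2909.6 and 2593 with miR-708. The siNT and miR-28 libraries overlapped, and the miR-708 libraries were all higher. The log2 fold change was 0.25 with miR-28 (95% interval -0.02 to 0.52, adjusted p = 0.171, limma) and 1.69 with miR-708 (standard error 0.13, adjusted p = 8.47e-06, limma).

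IFITM1 is found mainly at the plasma membrane. Its values were 257, 397 and 338 with siNT, 184, 271 and 403 with miR-28, and 4713, 9439.6 and 7569.8 with miR-708. The miR-28 range enclosed the siNT range, while the miR-708 libraries lay apart. The log2 fold change was -0.26 with miR-28 (95% interval -0.90 to 0.39, adjusted p = 0.555, limma) and 4.41 with miR-708 (standard error 0.29, adjusted p = 3.57e-06, limma).

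IFITM2 and IFITM3 reside in endosomal and lysosomal membranes and were already abundant in the cells that received siNT. IFITM2 was at 4562, 5575 and 5037 with siNT, 3916, 4895 and 5146 with miR-28, and 5759, 7594 and 8188 with miR-708. IFITM3 was at 5892, 7592 and 6803 with siNT, 5548, 8014 and 9117 with miR-28, and 12766, 17471 and 18597 with miR-708. For both, the miR-28 libraries overlapped those with siNT and every miR-708 library was higher. The log2 fold changes with miR-28 were -0.13 (95% interval -0.45 to 0.20) and 0.14 (-0.28 to 0.56), with adjusted p = 0.567 and 0.633 (limma). With miR-708 that of IFITM3 was 1.26 (standard error 0.19, adjusted p = 0.000693, limma) and that of IFITM2 was 0.49 (standard error 0.15, adjusted p = 0.0242, limma). The call of IFITM2 was lost without the variance trend (adjusted p = 0.0583, limma), without siNT replicate 7 or 9 (0.0848 and 0.0634) and without miR-708 replicate 8 or 9 (0.0846 and 0.103).

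**Figure D1:**
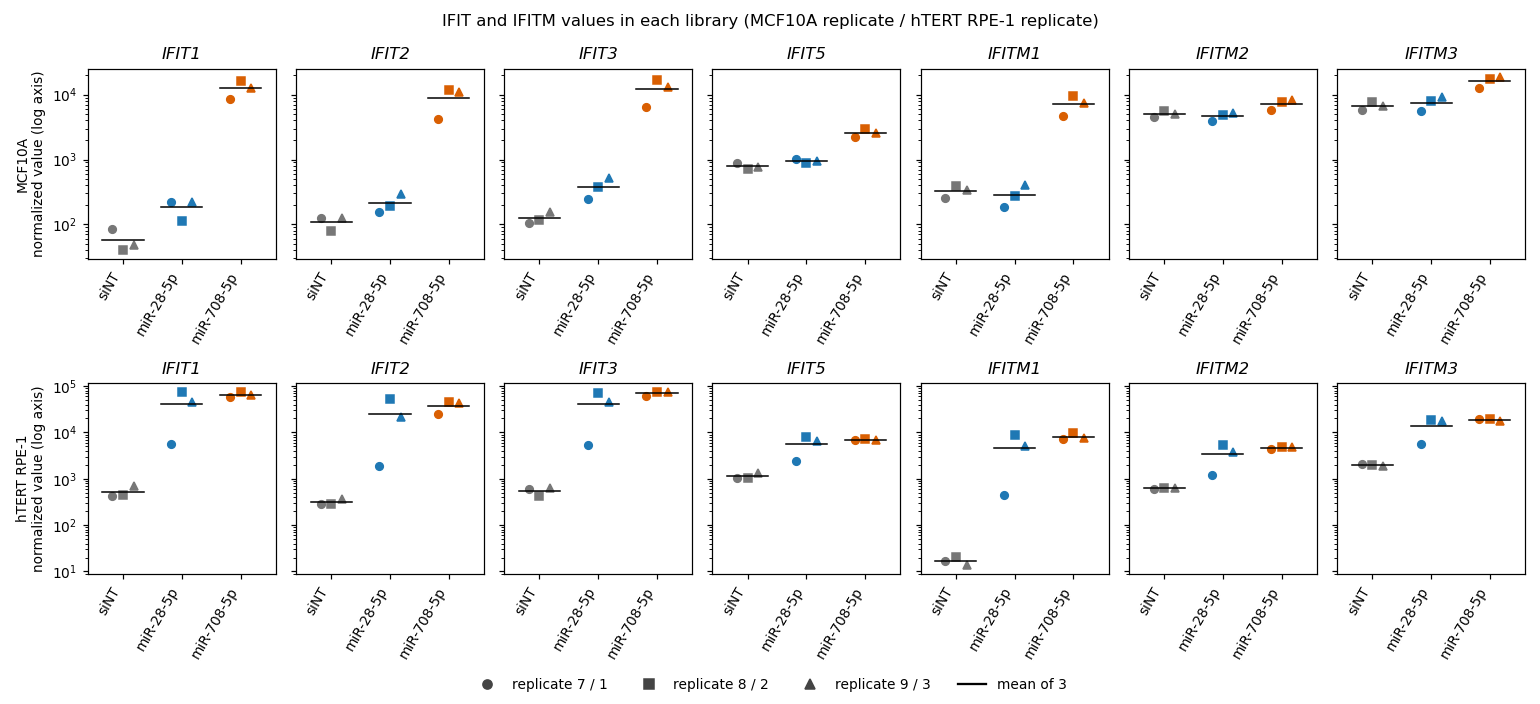
Normalized value of each gene (log axis) in each of the 18 libraries, with MCF10A in the upper row and RPE-1 in the lower row, symbols for the replicate and a line for the mean of 3. In MCF10A IFIT1 stands at 39.6–83.8 with siNT and at 8533–16272 with miR-708, while IFITM2 and IFITM3 are at 4562 or more in every siNT library, and in RPE-1 the circle of miR-28 replicate 1 lies below the other libraries with a mimic for every gene.

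All libraries with miR-708 were above all siNT libraries for 7 of the 7 genes in MCF10A, against 22.6% of all genes tested. With miR-28 this held for 3 genes, IFIT1, IFIT2 and IFIT3, against 19.7% of all genes. By the exact two-sided permutation test each of these separations had p = 0.1, and no smaller p is possible with 3 against 3. Over the 7 genes the median of the log2 fold changes was 0.25 (miR-28) and 4.41 (miR-708), while the median over all genes lay within 0.01 of 0.

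The same question was asked in RPE-1, where each of the 7 genes was called higher with both mimics. With miR-708 IFITM1 rose by 447-fold, IFIT1 by 130.2-fold, IFIT3 by 126-fold and IFIT2 by 117-fold, and IFITM3, IFITM2 and IFIT5 rose by 9.34-fold, 7.47-fold and 6.21-fold. With miR-28 the folds were 149 for IFITM1, 53.0 for IFIT1, 47.3 for IFIT3, 41.0 for IFIT2, 6.16 for IFITM3, 4.63 for IFITM2 and 4.43 for IFIT5. Many other genes moved in this line, with 30.9% of all genes called higher with miR-708 and 23.3% with miR-28.

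IFIT1 was at 416, 444 and 685 with siNT in replicates 1, 2 and 3 of RPE-1, 5557, 74143 and 45957 with miR-28, and 59534, 73466 and 64198 with miR-708. Every library with a mimic was above every siNT library. The miR-28 replicates spanned a 13.3-fold range, with replicate 1 far below the others, against a 1.23-fold range with miR-708. The log2 fold changes were 5.73 with miR-28 and 7.02 with miR-708 (standard error 0.72 for each, adjusted p = 0.000139 and 1.60e-05, limma).

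IFIT2 was at 293, 281 and 361 with siNT, 1849.8, 51751 and 21562 with miR-28, and 24652, 45271 and 43355 with miR-708. IFIT3 was at 597, 436 and 629.5 with siNT, 5399, 72513 and 44604 with miR-28, and 60644, 73864 and 74313 with miR-708. Both genes repeated the order seen for IFIT1, with siNT lowest, miR-28 replicate 1 next and the other libraries with a mimic high. The log2 fold changes of IFIT2 were 5.36 and 6.87 (standard error 0.91, adjusted p = 0.000847 and 8.17e-05, limma) and those of IFIT3 were 5.56 and 6.98 (standard error 0.72, adjusted p = 0.000160 and 1.60e-05, limma).

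IFIT5 was at 1043, 1037 and 1331 with siNT, 2393, 7932 and 6617 with miR-28, and 6866, 7331 and 6878 with miR-708. It had the smallest change of the 7 genes with either mimic in this line. The log2 fold changes were 2.15 and 2.64 (standard error 0.35, adjusted p = 0.000625 and 7.87e-05, limma).

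IFITM1 was nearly silent with siNT in RPE-1, at 16.8, 20.9 and 13.7, which is above the value of 3 reads in each library. It was at 437, 8648 and 5024 with miR-28 and at 7123, 9599.9 and 7470.4 with miR-708. Among the 7 genes it had the lowest siNT level per length and the largest change. The log2 fold changes were 7.22 and 8.80 (standard error 0.83, adjusted p = 7.15e-05 and 8.48e-06, limma).

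IFITM2 was at 589, 642 and 646 with siNT, 1198, 5355 and 3777 with miR-28, and 4311, 4813 and 4916 with miR-708. IFITM3 was at 2048, 1982 and 1931 with siNT, 5748, 18225 and 17486 with miR-28, and 19101, 19213 and 17444 with miR-708. The siNT libraries agreed closely, the highest being 1.10-fold and 1.06-fold the lowest, and even miR-28 replicate 1 was well above them. The log2 fold changes of IFITM2 were 2.21 and 2.90 (standard error 0.41, adjusted p = 0.00144 and 0.000130, limma) and those of IFITM3 were 2.62 and 3.22 (standard error 0.34, adjusted p = 0.000172 and 1.94e-05, limma).

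Every library with either mimic was above every siNT library for all 7 genes in RPE-1, against 26.9% of all genes tested with miR-28 and 34.3% with miR-708. Over the 7 genes the median of the log2 fold changes was 5.36 (miR-28) and 6.87 (miR-708), again with a median over all genes within 0.01 of 0. Without miR-28 replicate 1, each of the 7 genes was still called higher with miR-28 (22.5% of all genes were), and the log2 fold changes rose to 6.86 for IFIT1, 6.75 for IFIT2, 6.70 for IFIT3, 2.68 for IFIT5, 8.52 for IFITM1, 2.85 for IFITM2 and 3.17 for IFITM3. Their standard errors fell to 0.09–0.33, and the highest adjusted p was 1.13e-07 (limma). Without miR-28 replicate 2 instead, those of IFIT1, IFIT2, IFIT3 and IFITM1 were 4.99, 4.35, 4.82 and 6.37. Because the 3 IFITM genes can share reads, their values were also summed, and the log2 fold change of the sum was 0.025 (adjusted p = 0.939, limma) and 1.32 in MCF10A and 2.81 and 3.57 in RPE-1, for miR-28 and miR-708 in turn.

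**Figure D2:**
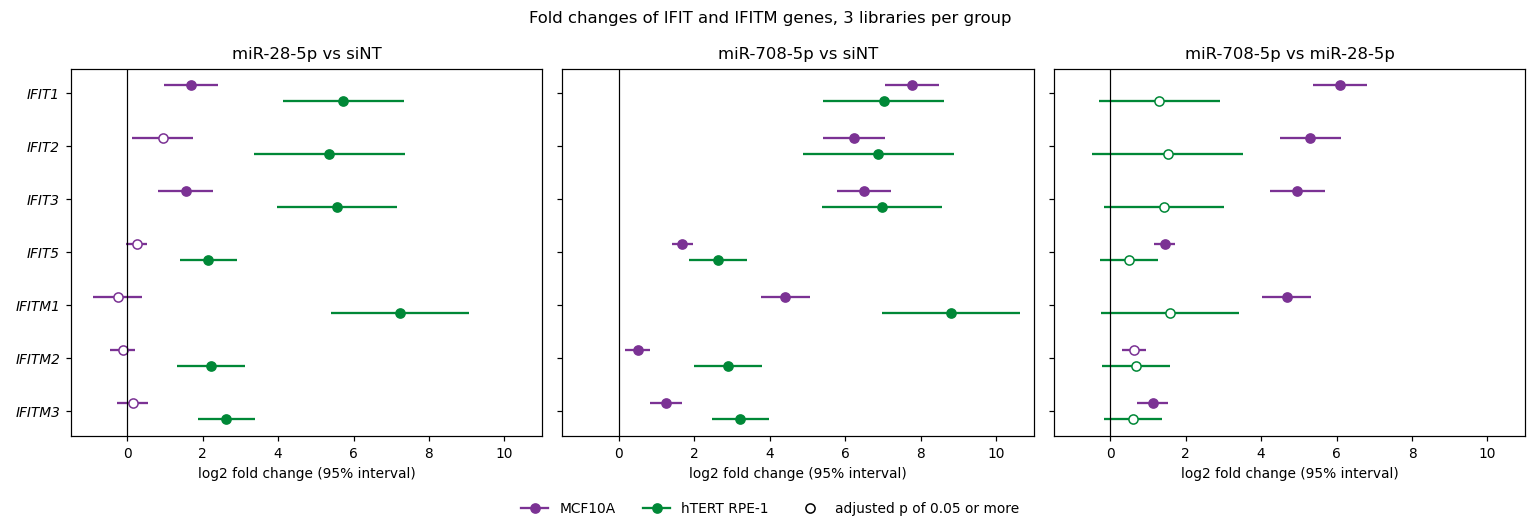
Log2 fold change of each gene (x axis) with its 95% interval from limma, for miR-28 against siNT, miR-708 against siNT and miR-708 against miR-28, 3 libraries per group, with open circles for an adjusted p of 0.05 or more. With miR-708 all 14 intervals lie above 0, from 0.49 for IFITM2 in MCF10A to 8.80 for IFITM1 in RPE-1, and in the direct comparison of the mimics each RPE-1 interval spans 0.

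Markers of other cells were read beside these changes. Of 8 blood cell markers, 2 were listed in RPE-1 and their summed level was 326–458 with siNT, 527–3725 with miR-28 and 4795–7237 with miR-708. Nearly all of it was CD68, a lysosomal glycoprotein abundant in macrophages, and PTPRC, the pan-leukocyte marker CD45, stayed at 3.14–11.4. CD3E, CD14, LYZ, CLEC4C and ITGAM were not listed in that table. In MCF10A 4 of the 8 were listed, with sums of 456–722, 471–546 and 864–1067 in the same order, and PTPRC was not listed. There CD14 had means of 377, 198 and 293, and CD68 had means of 205, 277 and 659. The sum of the 7 breast epithelial markers in MCF10A was 157774–173304 with siNT, 102166–112025 with miR-28 and 78067–100395 with miR-708. The sum of the 7 listed retinal pigment epithelial markers of 9 in RPE-1 was 153087–181659, 130243–138935 and 111845–127971, most of it VIM. Single markers moved further than the sums, such as KRT14 in MCF10A, with means of 35973, 10943 and 7456, and KRT8 in RPE-1, with means of 14933, 4921 and 2092. The part of these shifts in the IFIT and IFITM changes was not tested.

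The mimics were then compared with each other at their common dose and time. In MCF10A 6 of the 7 genes were called higher with miR-708 than with miR-28, in a comparison that called 1.28% of all genes higher. The log2 differences were 6.09 for IFIT1, 5.30 for IFIT2, 4.95 for IFIT3, 4.67 for IFITM1, 1.44 for IFIT5 and 1.12 for IFITM3, with standard errors of 0.33, 0.37, 0.33, 0.29, 0.13 and 0.19. The adjusted p ranged from 1.12e-06 for IFIT1 to 0.0109 for IFITM3 (limma). IFITM2 did not pass the test, with a difference of 0.62 (95% interval 0.30 to 0.94, adjusted p = 0.0725, limma). It did pass without miR-708 replicate 7 (adjusted p = 0.0132, limma) and with the replicate number as a block (adjusted p = 0.00199, limma). The call of IFITM3 was lost without the variance trend (0.0729) and without miR-708 replicate 8 or 9 (0.0656 and 0.0731). All miR-708 libraries were above all miR-28 libraries for each of the 7 genes, against 10.4% of all genes tested.

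In RPE-1 none of the 7 genes differed between the mimics by limma, with adjusted p of 0.187–0.343, no unadjusted p under 0.05 and 21.2% of all genes called (9.88% higher with miR-708). The groups overlapped for each gene, while 18.5% of all genes had every miR-708 library above every miR-28 library. The log2 differences were all positive and their 95% intervals were wide, at 1.30 (-0.30 to 2.90) for IFIT1, 1.52 (-0.49 to 3.52) for IFIT2, 1.42 (-0.17 to 3.01) for IFIT3 and 0.49 (-0.28 to 1.25) for IFIT5. They were 1.58 (-0.25 to 3.41) for IFITM1, 0.69 (-0.21 to 1.59) for IFITM2 and 0.60 (-0.16 to 1.36) for IFITM3. These intervals include no difference as well as a difference of several fold.

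The RPE-1 comparison turned on single miR-28 libraries. Without replicate 1 the log2 differences shrank to between -0.045 for IFIT5 and 0.29 for IFIT3, with none called (adjusted p = 0.392 to 0.849, limma, 6.53% of all genes called higher), and the interval of IFIT1 became -0.33 to 0.67. Without replicate 2, 5 genes were called higher with miR-708, IFIT1 by 2.03, IFIT2 by 2.53, IFIT3 by 2.16, IFITM1 by 2.43 and IFITM2 by 1.13 on the log2 scale (adjusted p = 0.0275 to 0.0368, limma), and so were 13.6% of all genes.

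**Figure D3:**
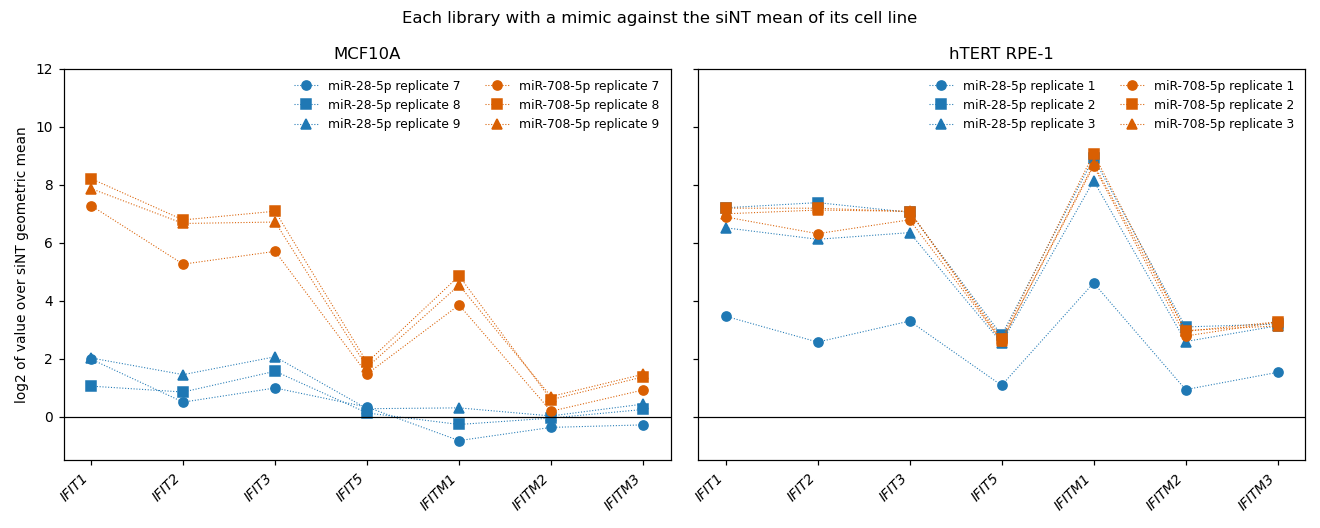
Log2 of the value plus 1 over the siNT geometric mean (y axis) for the 7 genes in each of the 12 libraries with a mimic, MCF10A on the left and RPE-1 on the right. The 3 miR-28 libraries of MCF10A stay between -0.82 and 2.07, and in RPE-1 miR-28 replicate 1 runs from 0.94 to 4.61 while replicates 2 and 3 lie within the miR-708 libraries or near them.

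Seen library by library, miR-28 replicate 1 was the lowest RPE-1 library with a mimic for every gene. In it the log2 ratio to the siNT mean was 3.47 for IFIT1, 2.58 for IFIT2, 3.30 for IFIT3, 1.08 for IFIT5, 4.61 for IFITM1, 0.94 for IFITM2 and 1.53 for IFITM3. The corresponding values were 7.20, 7.38, 7.05, 2.81, 8.92, 3.10 and 3.20 in replicate 2. Replicate 3 was below replicate 2 for every gene, at 6.51 for IFIT1, 6.12 for IFIT2, 6.35 for IFIT3, 2.55 for IFIT5, 8.13 for IFITM1, 2.59 for IFITM2 and 3.14 for IFITM3. RPS28 in replicate 1 was at 132, between the other miR-28 libraries (184 and 123), so RPS28 was no higher there. The estimated depth of replicate 1 was 32.3 M reads, within the range of the line.

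In MCF10A with miR-708, replicate 7 was the lowest library for each of the 7 genes, with a median log2 ratio of 3.85 against 4.85 in replicate 8 and 4.54 in replicate 9. With miR-28 the medians over the 7 genes were 0.33, 0.25 and 0.44 in replicates 7, 8 and 9, and no replicate was the lowest for every gene. IFIT3 ranged from 0.99 to 2.07 among those libraries and IFITM1 from -0.82 to 0.31.

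Whether the response differed between the cell lines was tested on the fold changes, since the authors scaled the tables separately. With miR-28 the log2 fold change was called larger in RPE-1 for each of the 7 genes, against 12.1% of the 13339 genes tested in both lines. IFITM1 differed most, by 7.48 (standard error 0.88, adjusted p = 8.99e-05), from -0.26 in MCF10A to 7.22 in RPE-1 (difference of the limma fold changes with Benjamini-Hochberg adjustment, as in the values that follow). IFIT2, IFIT1 and IFIT3 differed by 4.42, 4.04 and 4.02 (standard errors 0.98, 0.79 and 0.79, adjusted p = 0.00565, 0.00242 and 0.00238). IFITM3, IFITM2 and IFIT5 differed by 2.48, 2.34 and 1.90 (standard errors 0.39, 0.43 and 0.37, adjusted p = 0.000383, 0.00214 and 0.00269). Without miR-28 replicate 1 of RPE-1 the differences were larger, from 2.43 for IFIT5 to 8.78 for IFITM1. Without replicate 2 those of IFIT1, IFIT2, IFIT3 and IFITM1 were 3.30, 3.41, 3.28 and 6.63.

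With miR-708 the log2 fold changes of the 3 IFITM genes were larger in RPE-1, IFITM1 by 4.39, IFITM2 by 2.41 and IFITM3 by 1.97 (standard errors 0.88, 0.43 and 0.39, adjusted p = 0.00144, 0.000668 and 0.000824). A larger log2 fold change in RPE-1 was called for 20.2% of all genes. Levels were not compared between the lines, so a larger fold change is not a higher level. The IFIT genes did not pass the test, and their differences were -0.76 (95% interval -2.45 to 0.94) for IFIT1, 0.64 (-1.46 to 2.74) for IFIT2, 0.48 (-1.21 to 2.17) for IFIT3 and 0.95 (0.16 to 1.74, adjusted p = 0.0548) for IFIT5. The difference of IFIT5 passed without miR-28 replicate 1 of RPE-1 (adjusted p = 0.000118, 20.9% of all genes called higher), a library that enters this comparison through the spread only. It also passed without miR-28 replicate 2 of that line (0.0228) as well as without siNT or miR-708 replicate 8 of MCF10A (0.0440 and 0.0411) and under library size scaling (0.0322). With the replicate number as a block the difference of IFIT5 passed too (adjusted p = 0.0278, limma fold changes).

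**Figure D4:**
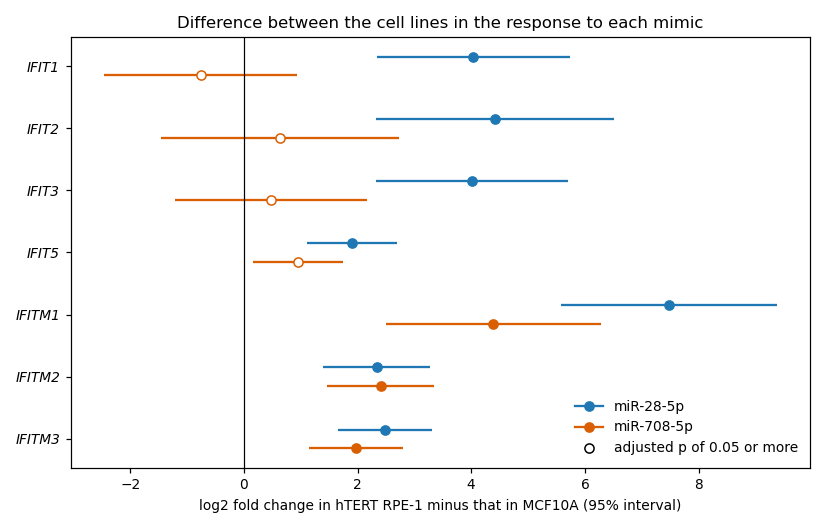
Difference between the cell lines in the log2 fold change of each gene against siNT, RPE-1 minus MCF10A (x axis), with 95% intervals and open circles for an adjusted p of 0.05 or more. With miR-28 each interval lies above 0, and with miR-708 the filled circles are IFITM1 at 4.39, IFITM2 at 2.41 and IFITM3 at 1.97.

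Levels of different genes can be set side by side only per length of transcript, and values per kb of the annotated transcript are used for this. With siNT in MCF10A the order was IFITM3 (9644–12426 per kb), IFITM2 (4535–5541), IFITM1 (384–594), IFIT5 (177–222.8), IFIT3 (44.6–64.6), IFIT2 (23.0–37.4) and IFIT1 (9.21–19.5), and no neighbours in this order overlapped. With siNT in RPE-1 IFITM3 (3159.7–3351) and IFITM2 (585–642) again led, followed by IFIT5 (257–330.4), IFIT3 (182–263), IFIT1 (96.7–159), IFIT2 (82.7–106) and IFITM1 (20.5–31.3). There IFIT5 overlapped IFIT3, and IFIT1 overlapped IFIT2. IFITM1 thus held the third place in MCF10A and the last in RPE-1.

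After miR-708 the order changed. In MCF10A IFITM3 was highest (20894–30437 per kb), followed by IFITM1 (7055–14131), IFITM2 (5725–8139.6), IFIT3 (2736–7137), IFIT1 (1984–3783), IFIT2 (1223–3520.0) and IFIT5 (548–722). IFITM2 overlapped both of its neighbours, and so did IFIT1. In RPE-1 IFITM3 (28550–31445) and IFIT3 (25374–31093) overlapped at the top, followed by IFIT1 (13839–17077), IFITM1 (10664–14371), IFIT2 (7265–13342), IFITM2 (4285–4886) and IFIT5 (1704–1819.5). IFIT5, the most abundant IFIT gene with siNT in both lines, was therefore the least abundant of the 7 with miR-708.

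Over the 12 libraries with a mimic, the root mean square difference of the log2 ratios to siNT was 0.44 between IFIT2 and IFIT3, 0.73 between IFIT1 and IFIT3 and 0.98 between IFIT1 and IFIT2. IFIT5 differed from these by 3.59–4.25 and was closer to IFITM3 (0.48) and IFITM2 (0.66). IFITM2 and IFITM3 differed by 0.50. IFITM1 differed from IFIT1, IFIT2 and IFIT3 by 1.75–2.29 and from IFIT5, IFITM2 and IFITM3 by 3.99–4.37.

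Among 11524 genes with a mean of at least 50 in a group of each line, the same measure gave the genes outside the families with the most similar pattern. ISG15, a ubiquitin-like modifier, and IFI6 were nearest to IFIT1 (0.96 and 1.06). ISG15 and HERC5, a ligase that attaches ISG15 to proteins, were nearest to IFIT2 (0.62 and 0.72) and also to IFIT3 (0.73 and 0.60). USP18, which removes ISG15 from proteins, and OAS1, which makes 2′-5′ oligoadenylates, were nearest to IFITM1 at a greater distance (1.40 and 1.53). For the other genes the nearest were DTX3L and LOC100419583 (IFIT5, 0.20 and 0.26), PNPT1 and TAP2 (IFITM2, 0.21 and 0.22), and PARP12 and NMI (IFITM3, both 0.27). The points share libraries and siNT means, so these values describe likeness and carry no test.

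The other genes of the pathway were then examined, in lists ordered from ligand to effector. Of 8 interferon genes, 1 was listed in MCF10A (IFNE) and 2 in RPE-1 (IFNA1 and IFNE), with adjusted p of 0.155 or more in each comparison (limma). IFNB1 and IFNL1 to IFNL3 were not listed in either table, so whether a mimic changed them was not tested. IFNE was at a mean of 56.8 with siNT, 68.9 with miR-28 and 55.9 with miR-708 in MCF10A, and at 370.4, 391 and 326 in RPE-1. Of 9 receptor and kinase genes, 1 was higher and 1 lower with miR-708 in MCF10A, while 4 were higher and 2 lower with each mimic in RPE-1. Over all genes, 12% were called lower with miR-28 and 17.3% with miR-708 in MCF10A, and 23.5% and 31.2% in RPE-1, beside the shares called higher given above. With miR-28 in MCF10A the log2 fold changes of the 9 receptor and kinase genes ran from -0.36 to 0.31. JAK1 was among the lower genes with both mimics in RPE-1, by -0.95 and -1.31 on the log2 scale, and is named here after its values were seen.

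Sensors and transcription factors were counted in the same way. Of 10 sensor and adaptor genes tested in MCF10A, 3 were higher with miR-28 and 7 with miR-708, and of 9 in RPE-1, 6 were higher with each mimic, with 1 and 2 lower. RIGI (listed as DDX58) was at 519.9 ± 47.4 with siNT, 839 ± 18.1 with miR-28 and 7553 ± 2579.6 with miR-708 in MCF10A, and at 1539 ± 32.6, 20349 ± 15728 and 23932 ± 3058 in RPE-1 (mean ± SD, n = 3 each). IFIH1 rose by 0.53 and 3.12 on the log2 scale in MCF10A (adjusted p = 0.0223 and 2.39e-07, limma) and by 4.28 and 5.37 in RPE-1 (adjusted p = 0.000365 and 3.70e-05, limma). Of 8 transcription factor genes, 3 were higher with miR-28 and 6 with miR-708 in MCF10A, and 7 with each in RPE-1. IRF5 was the 1 gene of this list called lower, with miR-708 in both lines, and is named after its values were seen.

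STAT2 and IRF9, which take part in binding the response element, were read next. On the log2 scale, with miR-28 and then miR-708, IRF9 rose by 0.88 and 2.93 in MCF10A and by 2.26 and 2.48 in RPE-1 (highest adjusted p = 0.00564, limma). The log2 fold change of STAT2 was 1.90, 1.75 and 2.03 in the called comparisons (miR-708 in MCF10A and both mimics in RPE-1, highest adjusted p = 0.00257, limma) and 0.75 with miR-28 in MCF10A (adjusted p = 0.0521, limma). IRF1 was called higher in all 4 comparisons, by 0.77 and 1.39 in MCF10A and 0.80 and 0.97 in RPE-1. IRF7 was called in 3, with 3.83 in MCF10A for miR-708 and 1.90 and 2.61 in RPE-1, and was at -0.10 with miR-28 in MCF10A (adjusted p = 0.866, limma).

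The other effectors went the way of the IFIT and IFITM genes. Of 28 tested in MCF10A, 28 were higher with miR-708 (median 3.55 on the log2 scale), and with miR-28 8 were higher and 1, OAS1, was lower (median 0.44). Of 26 tested in RPE-1, 25 were higher with miR-28 (median 3.92) and 26 with miR-708 (median 4.89). The list held 31 effectors. Some, such as OAS2 in RPE-1 (siNT mean 4.47) and MX1 in MCF10A (8.34), passed the filter only through libraries with a mimic. For such genes the filter itself favoured a higher call. Between the mimics 26 of 28 were higher with miR-708 in MCF10A. In RPE-1 none of the 26 was called, and the median difference of 1.02 fell to 0.052 without miR-28 replicate 1. Of 6 feedback regulators, 1 and 3 were higher in MCF10A and 4 and 4 in RPE-1, for miR-28 and miR-708 in turn. Without miR-28 replicate 1, 26 of 26 effectors, 7 of 8 transcription factors, 6 of 9 sensors and 5 of 6 feedback regulators were higher with miR-28 in RPE-1, and the effector median was 4.83. The response element letters occurred in the promoters of 17 of 25 of these effectors, 3 of 7 sensors and adaptors, 4 of 8 interferon genes, 1 of 4 feedback regulators, 0 of 8 receptors and kinases and 0 of 4 transcription factors that had an entry in the promoter table.

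**Figure D5:**
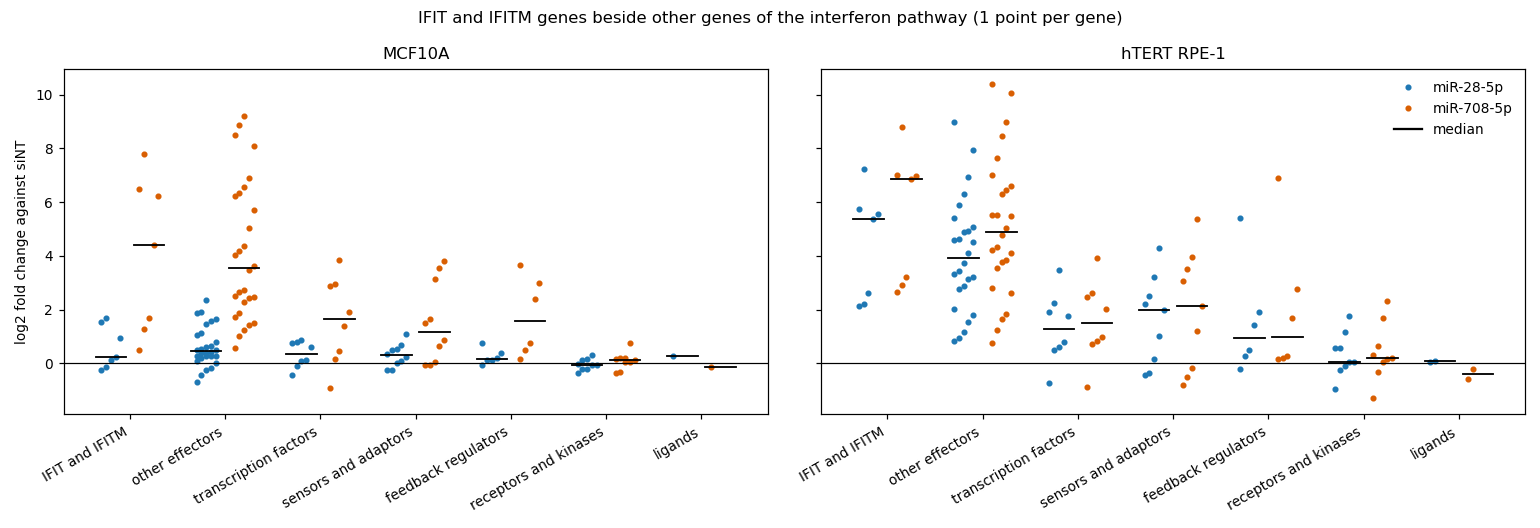
Log2 fold change against siNT (y axis) of each tested gene of the IFIT and IFITM families and of 6 pathway lists, 1 point per gene, with a line at the median, MCF10A on the left and RPE-1 on the right. The medians of the IFIT and IFITM genes are 0.25 and 4.41 in MCF10A and 5.36 and 6.87 in RPE-1, above those of the other effectors except with miR-28 in MCF10A. The receptor and ligand medians stay between -0.40 and 0.27, and the ligand median rests on 1 of 8 genes in MCF10A and 2 in RPE-1.

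A further gene of the IFITM family and the neighbours of both clusters were read for comparison. IFITM10 lies apart from the cluster, at chr11:1732406-1750595, and did not rise. In RPE-1 it was at 2736, 3084 and 1827 with siNT, 561, 462 and 432 with miR-28, and 177, 184 and 118 with miR-708. These groups did not overlap, and the log2 fold changes were -2.37 and -3.98 (standard error 0.22, adjusted p = 1.70e-05 and 2.97e-07, limma). In MCF10A it did not pass the test, at -0.14 and -0.52 (adjusted p = 0.790 and 0.233, limma). Its 3′ UTR holds a match to bases 2 to 7 of the seed, GCTCCT, which 32.8% of 3′ UTRs have. IFIT1B, IFITM4P and IFITM5 were not listed in either table.

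Of the 3 nearest tested protein-coding genes on each side of the IFIT cluster, FAS and PANK1 were called higher with both mimics in both lines, by 0.55 to 1.76 on the log2 scale. ACTA2 was higher in MCF10A (0.89 and 1.11) and lower in RPE-1 (-1.56 and -4.12), and STAMBPL1, KIF20B and HTR7 were higher with both mimics in RPE-1, by 0.73 to 2.85. Around the IFITM cluster SIRT3 was lower with both mimics in both lines (-0.63 to -1.34). In RPE-1 PKP3 was higher with both mimics (1.16 and 1.86) and B4GALNT4 was lower (-0.42 and -0.62), and neither was called in MCF10A. PSMD13 was called with miR-708 in RPE-1 only, higher by 0.19, and SIGIRR was not called in any of these comparisons. The tested gene nearest to this cluster, PGGHG at 11.7 kb, was not called in MCF10A (0.62 and -0.01) and was called with miR-708 in RPE-1, at -1.41. In RPE-1 with miR-708, the change of each of these 12 neighbours was smaller in size than those of IFIT1, IFIT2 and IFIT3, while ACTA2 (-4.12) and HTR7 (2.85) changed more than IFIT5 (2.64).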

How the data were processed

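PolyA+ RNA of 18 libraries was sequenced with paired-end reads. Per the labels and the study's methods, the authors aligned the trimmed reads to hg38 with HISAT2 2.1.0, estimated reads per RefSeq transcript in Partek Flow (E/M) and used DESeq2. The deposited signal is, per gene, those estimated reads over the size factor of the library (median ratio to the geometric mean 1.0027 in MCF10A and 1.0033 in RPE-1). Whole reads were not recovered, since 82.7–86.9% of low values were whole multiples of the library's step within 0.05 steps. The authors' own comparisons, also deposited (ratios, log2 ratios, p-values and false discovery rates), were not used.

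The test was limma 3.58.1 (R 4.3.3) on log2(value + 1) with a variance trend, over the 9 libraries of a line, after the filter on low values. Benjamini-Hochberg adjustment ran over all genes tested. The difference between lines used the fold changes, their standard errors and Welch–Satterthwaite degrees of freedom. Alternatives were a replicate block, other scalings, another pseudocount (5), no filter, no variance trend, summed IFITM values and leaving out each library. Replicate numbers were checked by the correlation of deviations from group means. Same-numbered pairs had 0.11–0.26 (siNT and miR-28) and 0.11–0.30 (siNT and miR-708) in MCF10A, and 0.13–0.28 between the mimics in RPE-1. The pairs were 0.02–0.18 elsewhere, which overlaps these ranges. A pair with different numbers, siNT replicate 8 with miR-28 replicate 9 in MCF10A, reached 0.11. Within a pair of groups, a library mostly had its highest correlation with the library of the same number. An exception was miR-28 replicate 8 in MCF10A, at 0.025 with miR-708 replicate 8 and 0.051 with miR-708 replicate 9. This check does not settle in which groups the replicates are paired. The main test used no block, and results with the block are given beside it.

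The members, the pathway lists and the rule for named genes (members, main pathway factors, further family genes, nearest patterns, neighbours) were chosen with earlier results of these data known. Some items on these lists are not reported here. Python 3.11.15, pandas 2.3.3, numpy 2.4.6, scipy 1.17.1, Biopython 1.88 and matplotlib 3.10.9 were also used.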

Additional observations from a re-analysis of the deposited data

Results flagged for a closer look

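The response of these genes differed between the cell lines, and each such difference was tested as the log2 fold change in RPE-1 minus that in MCF10A (limma fold changes with Benjamini-Hochberg adjustment). With miR-28 it was 4.04 for IFIT1, 4.42 for IFIT2, 4.02 for IFIT3, 1.90 for IFIT5, 7.48 for IFITM1, 2.34 for IFITM2 and 2.48 for IFITM3. With miR-708 it was 4.39 for IFITM1, 2.41 for IFITM2 and 1.97 for IFITM3. The miR-28 differences rest on a group in which replicate 1 was far below replicates 2 and 3.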

How the results depend on the processing

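Of the fold changes of the 7 genes recomputed with a library left out, 610 of 630 kept their direction and their side of the threshold, and so did 345 under the other alternatives, with 9 exceptions. Part of the agreement in direction was fixed in advance. A library outside a comparison enters its spread only, so leaving it out cannot change the fold change. The replicate block, the filter and the variance trend also leave these fold changes as they are. The number of genes called among the 7 stayed within 1.5 times its value under every alternative in 7 of the 8 comparisons. The exception was miR-708 against miR-28 in RPE-1, where leaving out each library in turn gave 0 to 5 genes.

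Directions turned for values near 0 that were never called. With miR-28 in MCF10A, IFITM1 was at -0.54 to 0.022 with a library left out (above 0 without miR-28 replicate 7), IFITM3 was at -0.013 to 0.35 (below 0 without miR-28 replicate 9), and the summed IFITM value (0.025) opposed IFITM1 and IFITM2. In the comparison of the mimics in RPE-1, IFIT5 was at -0.045 to 0.82 with a library left out (below 0 without miR-28 replicate 1).

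With the replicate number as a block, 3, 7 and 7 of the 7 genes were called in MCF10A (miR-28, then miR-708, then between the mimics), 7, 7 and 0 in RPE-1, and 7 and 4 between the lines. Over all genes the block called 4408, 5818 and 643 of 14726 in MCF10A, in either direction. It called 6997, 9101 and 3315 of 14527 in RPE-1, and 3757 and 5838 of 13339 between the lines. Without the block these counts were 3347, 4835 and 228, then 6798, 9024 and 3084, then 3127 and 5311. The replicate block changed the call of IFIT2 (miR-28, MCF10A), of IFITM2 between the mimics in MCF10A (0.62, adjusted p = 0.00199, limma) and of IFIT5 between the lines with miR-708 (0.95, adjusted p = 0.0278, limma), and no other call of the 7 genes. Over all genes, the comparison of the mimics in MCF10A called 228 genes, 643 with the block, 150 without the variance trend and 112 to 368 with a library left out. The other counts that moved by over 1.5 times were 3347 to 1949 at the lowest (miR-28, MCF10A, a library left out), 4835 to 3174 (miR-708, MCF10A, a library left out), and 3084 to 4654 under library size scaling and 1512 at the lowest (between the mimics, RPE-1). Library size scaling moved the median of all genes by 0.12 and 0.14 in MCF10A and by 0.09 and 0.32 in RPE-1, and the percentage of called genes that were higher from 47.1% to 66.2%, 47.3% to 67.6%, 49.9% to 59.4% and 49.7% to 71.9%. Between the mimics in RPE-1 that percentage moved from 46.5% to 84.8%, and between the lines with miR-708 from 50.8% to 68.5%. Upper quartile scaling gave 58.5% with miR-28 in MCF10A.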
